A study of Mus musculus with 12 samples.

Results

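The proteasome genes of the mouse were examined for R-loops in the hepatoma line HEPA1-6 and in liver of the mouse. The genes were chosen by name alone: protein-coding RefSeq genes whose symbol begins with Psma, Psmb, Psmc, Psmd, Psme, Psmf or Psmg followed by a digit. The rule gave 51 genes of 21887 protein-coding genes in the gene table. It used no measured value, though it was set with earlier results of these data known. Of the 51, Psmc3ip, a meiotic recombination factor, and Psme3ip1, a partner of the activator Psme3, carry the name without being proteasome subunits. They are kept as members and set apart below.

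The proteasome is the protease that degrades ubiquitin-tagged proteins in the cytosol and the nucleus. Its 20S core is a barrel of alpha rings, which gate the entrance, and beta rings, which hold the catalytic sites. A 19S cap with a ring of ATPases recognises, unfolds and feeds the substrate, and alternative activators can replace the cap. Cells need all constitutive subunits in fixed proportions, so these genes are transcribed in practically every tissue. R-loops form where a nascent RNA pairs back with its template DNA. They are common at transcribed genes, above all near CpG-rich starts and at transcript ends.

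The series holds 12 libraries in 6 groups of 2. For each source these were an immunoprecipitate with S9.6, an antibody against RNA-DNA hybrids, an immunoprecipitate treated with RNase H1, which degrades the RNA of a hybrid, and an input. Both sources are labelled wild type and without treatment, and both carry the label hepatocyte. HEPA1-6 is an established mouse hepatoma line grown in serum-containing medium, and the liver came from C57/Bl6 mice, whose ages the labels do not give. The values used are 1 deposited peak list per source, made, per the peak names, from merged immunoprecipitates and an input, so no difference between the sources has a replicate check and none carries a p-value. The RNase H1 libraries were not analysed here, and library depth is unknown.

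The HEPA1-6 list held 28717 peaks and the liver list 14908. The score is the authors' value per peak with no stated scale, and its median was 21 and 22. The second list is called liver-labelled, since its markers did not follow its label closely. Of 12 hepatocyte markers 4 held a peak in it (Alb, Apoa2, Trf and Hnf4a). None was found at Apoa1, Apob, Apoc3, Ttr, Serpina1a, Cyp3a11, Cps1 or Tat. Of 8 proliferation markers 7 held one (all but Mcm5). In HEPA1-6 the counts were 5 and 8. Over all protein-coding genes 29.7% held a liver-labelled peak and 42.0% a HEPA1-6 peak. The hepatocyte marker counts lay near these shares in both lists. Of 4 immune markers, Cd74 held a peak in both lists, of 3 stellate markers Dcn did, and of 3 endothelial markers none did. The part of these marker patterns in the results was not tested. In a bulk extract, few cells with a frequent hybrid and many cells with a rare one cannot be told apart.

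Most proteasome genes held an R-loop peak in HEPA1-6, and about as many held one in the liver-labelled list as did not. A peak within the gene body or 1 kb on either side was found at 42 of 51 genes in HEPA1-6 (82.4%, 95% Wilson interval 69.7 to 90.4%). Over all protein-coding genes this share was 42.0%. In the liver-labelled list 27 of 51 genes held a peak (52.9%, 39.5 to 65.9%), against 29.7% of all protein-coding genes. Both lists had a peak at 26 genes (51.0%, 37.7 to 64.1%), against 27.8%. The intervals cover counting error over genes only. Without Psmc3ip and Psme3ip1 the counts were 40 of 49 (81.6%) and 26 of 49 (53.1%).

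Sharing between the lists ran mostly one way. Of the 27 proteasome genes in the liver-labelled list, 26 (96.3%) were in the HEPA1-6 list too, as were 93.6% of all protein-coding genes found in the former. Of the 42 genes with a HEPA1-6 peak, 26 (61.9%) held a liver-labelled one, where all protein-coding genes had 66.1%. A HEPA1-6 peak alone was found at 16 of the 51 genes (31.4%, against 14.2% of all protein-coding genes). They were Psma4, Psma5, Psmb2, Psmb4, Psmb5, Psmb9, Psmb10, Psmc1, Psmd2, Psmd4, Psmd6, Psmd14, Psme2b, Psmg1, Psmg4 and Psmc3ip. The highest score of these 16 had a median of 28 (range 15 to 55), against 46 (25 to 154) for the 26 genes with a peak in both. A liver-labelled peak alone was found at Psme2. Neither list had a peak at 8 genes (15.7%, against 56.1% of all protein-coding genes): Psma6, Psma8, Psmb8, Psmb11, Psmc2, Psmd10, Psme1 and Psmg2. These genes lack a called peak at a depth that is unknown, which does not show that they lack hybrids.

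**Figure D1:**
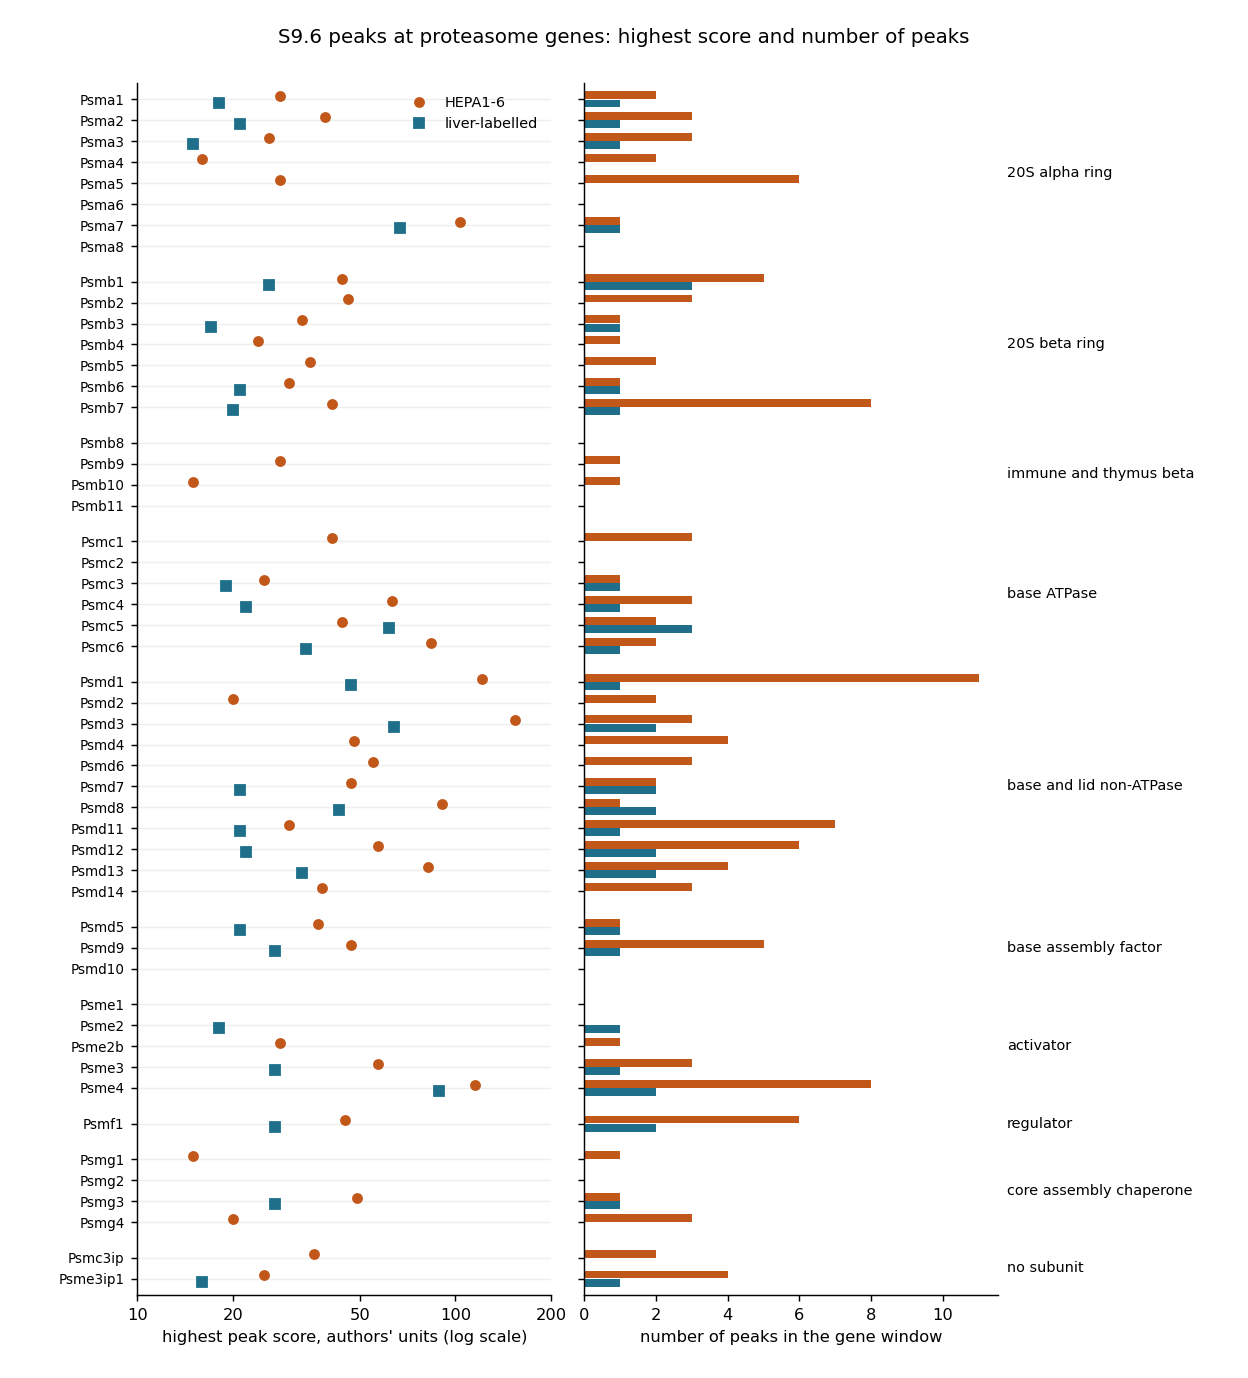
Highest peak score on a log axis (left) and number of peaks (right) of each of the 51 genes, with HEPA1-6 as orange circles and bars and the liver-labelled list as blue squares and bars; a gene without a point has no peak in that list. The highest scores lie at Psmd3, Psmd1, Psme4 and Psma7, and rows without any mark include Psmb8, Psmb11, Psma6 and Psmc2; score scales were not stated, so heights are not comparable between the lists.

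Gene length differed between these genes and the rest, and the share of genes with a peak differed between classes of length. The median proteasome gene was 11.6 kb long (range 1.07 to 109 kb), against 17.2 kb for all protein-coding genes. Among genes under 5 kb, 7 of 11 proteasome genes (63.6%) held a HEPA1-6 peak and 22.5% of all genes did. From 5 to 20 kb the counts were 23 of 26 (88.5%) against 46.6%, from 20 to 50 kb 8 of 9 (88.9%) against 50%, and over 50 kb 4 of 5 (80.0%) against 47.3%. In the liver-labelled list the same classes gave 3 of 11 (27.3%) against 16.5%, 15 of 26 (57.7%) against 32.2%, 6 of 9 (66.7%) against 34.0%, and 3 of 5 against 35.2%. The proteasome share was the higher one in every class and in both lists. In HEPA1-6 the interval of the proteasome share lay above the share of all genes in the 3 classes under 50 kb. In the liver-labelled list it did so from 5 to 20 kb (38.9 to 74.5%) and, narrowly, from 20 to 50 kb (35.4 to 87.9%).

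**Figure D2:**
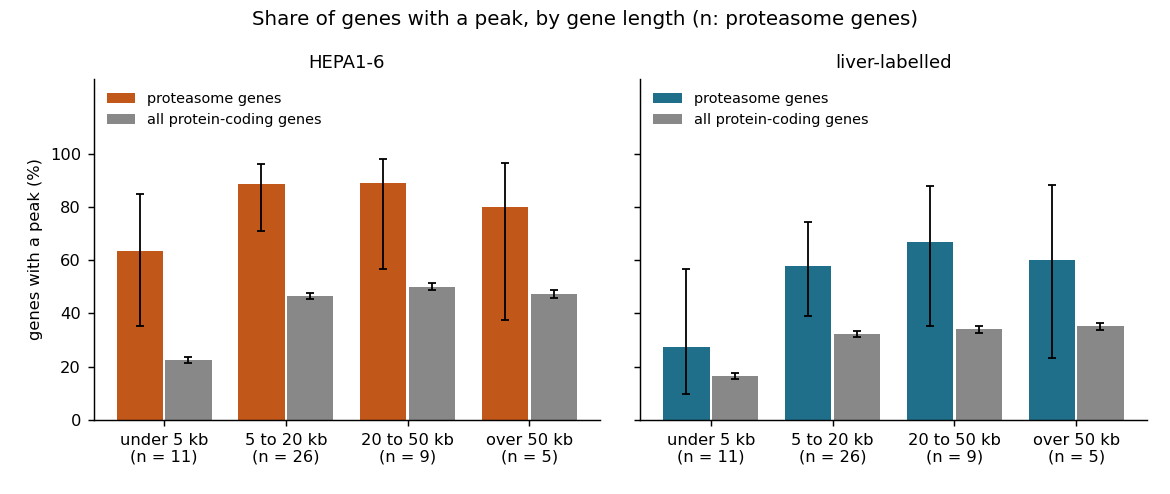
Percent of genes with a peak in 4 classes of gene length, for proteasome genes (coloured) and all protein-coding genes (grey), in HEPA1-6 (left) and the liver-labelled list (right). Bars start at 0, error bars are 95% Wilson intervals, and n is the number of proteasome genes; the coloured bar is higher in every class, with wide intervals where n is 11 or less.

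The 20S core was described first. Of 8 alpha genes, which form the outer rings, 6 held a peak in HEPA1-6 and 4 of these a liver-labelled peak too. Psma7 stood highest among them. A single HEPA1-6 peak of 8834 bp (chromosome 2, 180035359 to 180044192, score 103) covered the whole 6.10 kb gene, and the liver-labelled peak (180035359 to 180043548, score 67) began at the same base. Both peaks also touched the neighbours Lsm14b and Ss18l1, so their signal cannot be assigned to Psma7 alone. Psma1 held 2 HEPA1-6 peaks (28 and 24) and 1 liver-labelled peak (18), and Psma3 held 3 (26, 21 and 16) and 1 (15). Neither had a peak at its start. Also with peaks were Psma2, with HEPA1-6 scores of 13, 20 and 39 and a liver-labelled score of 21, and Psma4, with 2 HEPA1-6 peaks that both scored 16. Psma5 held 6 separate HEPA1-6 peaks, all between 3802 and 17432 bp past its start, with scores from 13 to 28 (20, 28, 19, 13, 27 and 13 in order along the gene), and no liver-labelled peak. Psma8, the testis form of an alpha subunit, held none, and neither did the ubiquitous Psma6.

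All 7 constitutive beta genes held a HEPA1-6 peak, and 4 of them (Psmb1, Psmb3, Psmb6 and Psmb7) a liver-labelled one. The catalytic subunits are encoded by Psmb5, Psmb6 and Psmb7. Psmb7 held 8 HEPA1-6 peaks (highest score 41) and 1 liver-labelled peak (score 20). Psmb6 held 1 in each list (30 and 21), the liver-labelled one lying just past the end of the gene, in the flank. Psmb5 held 2 in HEPA1-6 (35 and 16) and none in the liver-labelled list. Psmb1 held 5 HEPA1-6 and 3 liver-labelled peaks, and each liver-labelled peak there began at the first base of a HEPA1-6 peak. Psmb3 was covered over 84.0% of its length by a HEPA1-6 peak of 11244 bp (score 33) that ran past its end into Pip4k2b, and a liver-labelled peak of 6942 bp (score 17) lay inside it. Psmb2 held 3 HEPA1-6 peaks (46, 20 and 18) and Psmb4 held 1 over 97.2% of its length (24). Of the Psmb1 peaks, one of 450 bp (chromosome 17, 15495200 to 15495649) was the same interval in both lists, with scores of 22 and 16.

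The beta subunits of the immunoproteasome and thymoproteasome held 2 peaks in all. Psmb8, Psmb9 and Psmb10 replace the constitutive catalytic subunits after interferon exposure and in immune cells, and Psmb11 does so in the thymus cortex. None of these 4 genes held a liver-labelled peak. In HEPA1-6, Psmb9 held 1 peak of 314 bp over its start (score 28) and Psmb10 held 1 of 649 bp in its body (score 15). The other core and cap genes among the members, with the testis form Psma8 included, held a HEPA1-6 peak at 29 of 32 (90.6%, 75.8 to 96.8%). They held a liver-labelled peak at 19 of 32 (59.4%, 42.3 to 74.5%). A set of 4 genes is too small to be set against these shares, and no test was made.

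The base of the cap carries 6 ATPases, Psmc1 to Psmc6, which unfold the substrate. Of these, 5 held a peak in HEPA1-6 and 4 also one that was liver-labelled, with Psmc2 lacking both and Psmc1 lacking the latter. Psmc6 had a HEPA1-6 peak of 1049 bp over its start (score 84) and a liver-labelled peak of 650 bp beginning 156 bp past it (score 34), and both ended at the same base. Psmc4 held 3 HEPA1-6 peaks that together covered 74.6% of the gene, with a highest score of 63, and 1 liver-labelled peak that covered 6.95%. Psmc3 was wholly inside a HEPA1-6 peak of 10017 bp (score 25) that also touched Slc39a13, and its liver-labelled peak had 476 bp (score 19). Psmc1 held 3 HEPA1-6 peaks (41, 22 and 14), one of them over the start. Psmc5 was among the 3 genes with more liver-labelled than HEPA1-6 peaks, the others being Psmd8 and Psme2. Its 3 liver-labelled peaks (scores 23, 43 and 62) all lay within 1 HEPA1-6 peak of 13604 bp (score 44), which ran on into the neighbour Smarcd2. A further HEPA1-6 peak over the start of Psmc5 scored 16.

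The non-ATPase subunits of base and lid recognise ubiquitin, remove it and hold the cap together. All 11 that the naming rule covers held a peak in HEPA1-6, and 7 held a liver-labelled peak as well. Together they held 46 HEPA1-6 and 12 liver-labelled peaks in all. Psmd3, a lid scaffold subunit, had the highest HEPA1-6 score of any member: a peak of 1595 bp at one boundary of the gene (chromosome 11, 98682361 to 98683955) scored 154, at percentile 98.9 of the list. The liver-labelled peak there began at the same base and scored 64. Psmd3 held 2 more HEPA1-6 peaks (27 and 60), and a second liver-labelled peak (36) lay inside the latter. Psmd1, the large base scaffold, held 11 HEPA1-6 peaks, the most of any member. One of these, 3719 bp long and starting 23210 bp inside the gene, scored 121, and the only liver-labelled peak of the gene (score 47) lay within it and ended at the same base. The other 10 HEPA1-6 peaks of Psmd1 scored 12, 18, 12, 27, 16, 16, 18, 24, 12 and 19 in order along the gene. The start of Psmd1 itself held no peak in either list.

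Psmd8, Psmd12 and Psmd13 also scored high. Psmd8 was covered from end to end by 1 HEPA1-6 peak of 11564 bp (score 91). Its 2 liver-labelled peaks (scores 22 and 43) reached the same outer limits but left a gap within the gene, covering 80.0% of it. This interval also held parts of Ggn and Catsperg1. Psmd12 held 6 HEPA1-6 peaks along its whole length, with the highest (57) over the start, and 2 liver-labelled peaks (22 at the start and 20 in the body). Psmd13 reached 82 in HEPA1-6 in a peak at its end that extended over Cox8b, and a liver-labelled peak inside it (score 33) ended at the same base. Its other HEPA1-6 peaks scored 11, 17 and 29, and its other liver-labelled peak scored 16. Psmd7 held 2 peaks in each list (29 and 47 in HEPA1-6, 15 and 21 in the other), each liver-labelled peak inside a HEPA1-6 peak. Psmd11 held 7 HEPA1-6 peaks with scores from 12 to 30 and 1 liver-labelled peak (21) just past its end. Psmd6 held 3 in HEPA1-6 (55 over the start, 19 and 22 farther on), and Psmd2 held 2 (20 and 13). Psmd14, the lid enzyme that removes ubiquitin chains, held 3 HEPA1-6 peaks (23, 13 and 38). Psmd4, a ubiquitin receptor, held 4 (48, 13, 16 and 26). Psmd2, Psmd4, Psmd6 and Psmd14 held no liver-labelled peak, although the highest Psmd4 peak, past the end of the gene, overlapped one outside the 1 kb flank.

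Among the 3 factors that help to build the base, Psmd5 and Psmd9 held peaks in both lists and Psmd10, on the X chromosome, in neither. Psmd9 held 5 HEPA1-6 peaks, with the highest (47) over the later part of the gene, and its liver-labelled peak (27) lay inside that one. The Psmd5 peak was short, 255 bp in HEPA1-6 (score 37) and 236 bp in the liver-labelled list (score 21), and began at the same base, near the end of the gene. Of the 4 chaperones of core assembly, Psmg3 was covered in full by a peak in each list (scores 49 and 27). Psmg1 held 1 peak over its start (15) and Psmg4 held 3 (20, 11 and 20), all in HEPA1-6, and Psmg2 held none.

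The activators replace the 19S cap. Psme4, which encodes the large nuclear activator PA200, held an identical peak in both lists. The same 1725 bp interval (chromosome 11, 30771133 to 30772857) spanned the start, reached 1082 bp into the gene and was called in both lists. It scored 115 in HEPA1-6 (percentile 98.1) and 89 in the liver-labelled list (percentile 97.4), the highest liver-labelled score of any member. Further peaks of Psme4 lay in its 109 kb body, 7 in HEPA1-6 with scores of 34, 15, 42, 15, 25, 18 and 17, and 1 liver-labelled peak of score 19. Psme3, encoding the nuclear PA28 gamma, held a peak over the start in both lists as well, with scores of 57 and 27 and the same first base, and 2 more in HEPA1-6 (19 and 15). Psme1 and Psme2 encode the interferon-inducible PA28 alpha and beta. Psme1 had no peak, and Psme2 held 1 liver-labelled peak of 290 bp near its start (score 18), the one liver-labelled peak at a member that overlapped no HEPA1-6 peak. The copy Psme2b lay within a HEPA1-6 peak of 5224 bp (score 28) that also touched another gene, and reads of so similar a copy may be placed at either. Psmf1, which encodes the proteasome inhibitor PI31, held 6 HEPA1-6 and 2 liver-labelled peaks, and both of the latter began at the first base of a HEPA1-6 peak in genome coordinates. The 2 genes that are no subunits held 2 HEPA1-6 peaks (Psmc3ip, 36 and 28) and 4 (Psme3ip1, from 12 to 25), with 1 liver-labelled peak (16) over the start of Psme3ip1.

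**Figure D3:**
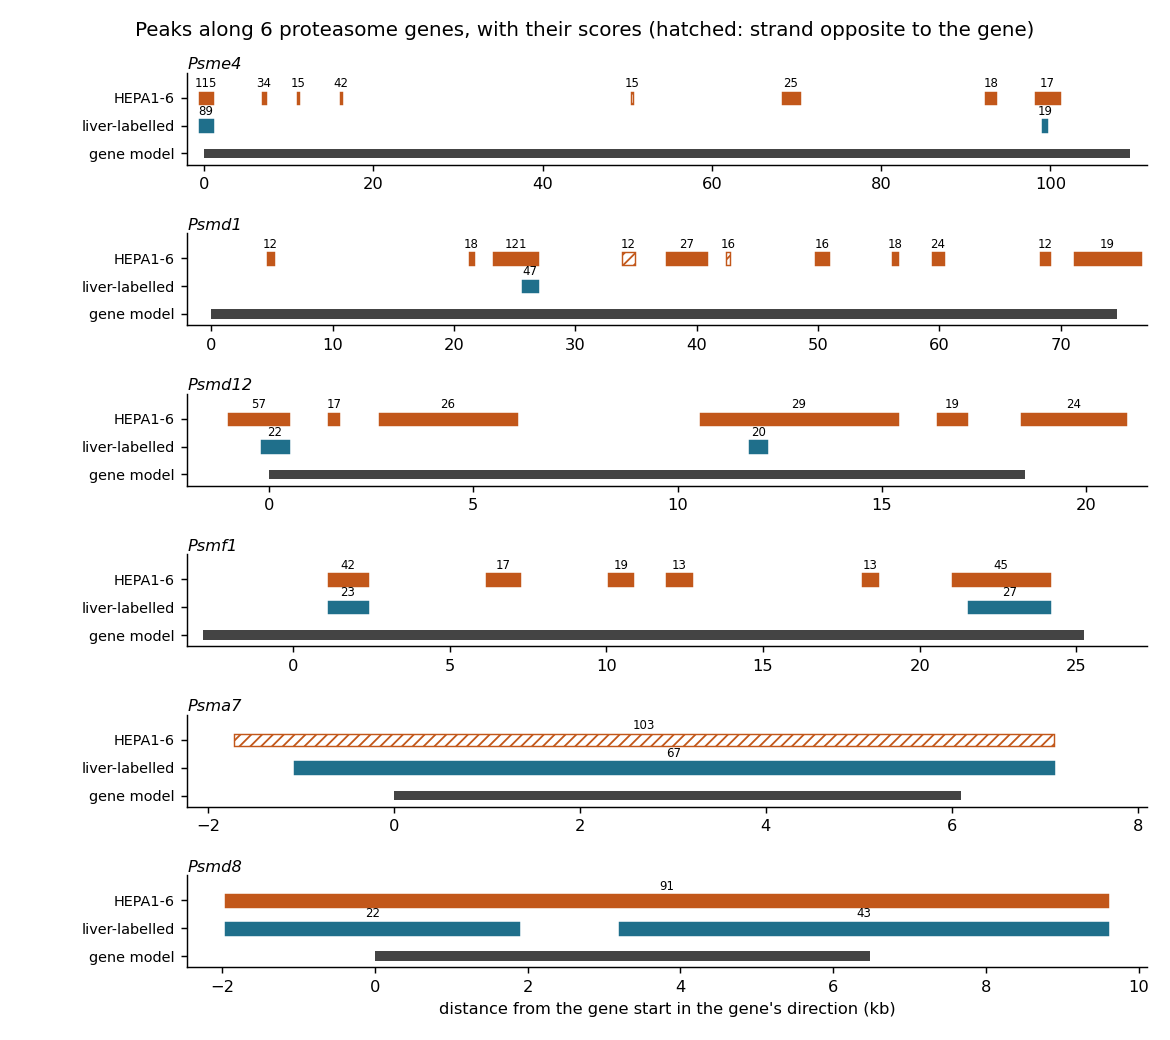
Peaks along Psme4, Psmd1, Psmd12, Psmf1, Psma7 and Psmd8 against distance from the gene start in kb, drawn to scale in the direction of the gene, with the authors' score above each peak. Orange bars are HEPA1-6 peaks, blue bars liver-labelled peaks, hatched bars lie on the strand opposite to the gene, and the dark bar is the RefSeq gene model. In each gene the liver-labelled peaks fall on HEPA1-6 peaks, and the highest-scoring HEPA1-6 peak of each gene has a liver-labelled counterpart. The genes drawn are examples. At Psma1, Psma2, Psma3, Psmc4, Psmd11 and Psme3ip1, which also held peaks in both lists, the highest-scoring HEPA1-6 peak overlapped no liver-labelled peak.

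The 51 genes held 132 distinct HEPA1-6 peaks and 38 liver-labelled ones. Their scores lay about the medians of the lists. In HEPA1-6, 69 of the 132 peaks (52.3%) scored above the list's median of 21, as did 46.7% of the whole list, and in the liver-labelled list 18 of 38 (47.4%) scored above 22, against 46.5%. The highest score per gene had a median of 40 in HEPA1-6 (interquartile range 28 to 53.5), against 34 over all protein-coding genes with a peak. In the liver-labelled list it was 22 (20.5 to 33.5), against 28. The binomial intervals of these medians, 30 to 47 and 21 to 33, include the values of all protein-coding genes. Median widths were 1179 bp and 1060 bp.

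Proteasome genes with a peak held a median of 3 HEPA1-6 peaks and of 1 liver-labelled peak, against 2 and 1 over all protein-coding genes with a peak. More HEPA1-6 than liver-labelled peaks were counted at 33 of the 51 genes, and the HEPA1-6 list is also the longer one. For this count the share of all protein-coding genes was not computed, so it describes the members only. HEPA1-6 peaks covered 20.7% of all proteasome gene bases and liver-labelled peaks 5.57%. Over all protein-coding gene bases these shares were 4.65% and 1.55%. In HEPA1-6, 16 of 51 genes (31.4%) were covered over 50% or more of their length, against 9.31% of all genes. The 4 such genes of the liver-labelled list were Psma7, Psmb3, Psmd8 and Psmg3 (7.84%, against 3.41%). Longer members held more HEPA1-6 peaks (Spearman's rho 0.58 over 51 genes, a description across genes of the same library).

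Peaks found in both lists were the higher and wider ones. Of the 132 HEPA1-6 peaks at these genes, 36 overlapped a liver-labelled peak (27.3%, 20.4 to 35.4%), where the whole HEPA1-6 list had 31.8%. These 36 had a median score of 41.5 and a median width of 3090 bp. The other 96 had 19 and 862 bp. Width and score moved together here, and the part of width in the overlap was not tested. All but 1 of the 38 liver-labelled peaks (97.4%, 86.5 to 99.5%) had a HEPA1-6 counterpart, against 75.9% of that whole list, which also holds peaks away from genes. In 34 of 37 overlapping pairs (91.9%) the liver-labelled peak lay inside the HEPA1-6 peak, as in 86.0% of all pairs of the lists. A first or last base was common to both peaks in 19 of the 37 pairs (51.4%), against 46.1% of all pairs. Across the 37 pairs the scores of the lists had a Spearman's rho of 0.853, against 0.562 across all 11455 pairs. Some pairs share a peak, and the value describes ranks only.

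Positions within the genes were taken next, for the 43 members whose start and strand are in the RefSeq promoter table. Psma8, Psmb1, Psmb2, Psmb7, Psmc3, Psmd3, Psmd7 and Psmg2 were not matched there. Within 1 kb of the start, 23 of 43 genes (53.5%, 38.9 to 67.5%) held a HEPA1-6 peak, against 25.9% of all protein-coding genes in that table. The liver-labelled list had a peak there at 10 genes (23.3%, 13.2 to 37.7%), against 17.9%. Both lists had one at 9 genes (20.9%, 11.4 to 35.2%), against 16.4%. These were Psma2, Psma7, Psmc6, Psmd8, Psmd12, Psme3, Psme4, Psmg3 and Psme3ip1. The intervals of both latter shares included the shares of all genes.

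Gene ends were counted in the same way. Within 1 kb of the end, 27 of 43 genes (62.8%, 47.9 to 75.6%) held a HEPA1-6 peak, against 23.8% of all protein-coding genes. The liver-labelled list had a peak there at 9 genes (20.9%, 11.4 to 35.2%), against 11.8%, a share just inside that interval, and each of these 9 also held a HEPA1-6 peak at the end. In HEPA1-6, 17 of 43 genes held a peak at both start and end (39.5%, 26.4 to 54.4%), against 15.1% of all protein-coding genes. A further 3 genes with a peak (Psma5, Psmd14 and Psmf1) held one at neither (6.98%, against 7.84%). When only the midpoint was counted, 15 genes held a HEPA1-6 peak at the end and 16 at the start, so the order of end and start turned. For liver-labelled peaks the midpoint gave 5 genes at the end and 8 at the start. At the remaining genes the peak reached the end without being centred near it. For these midpoint counts the share of all protein-coding genes was not computed, so they describe the members only.

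**Figure D4:**
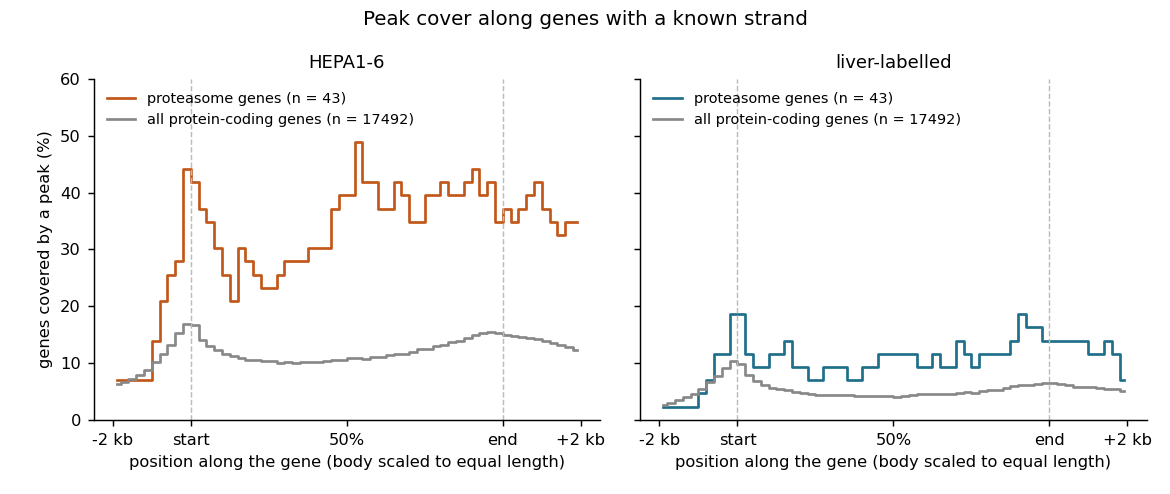
Percent of genes covered by a peak at each position, from 2 kb before the outer start of the gene model through the body, scaled to equal length, to 2 kb past its end, for 43 proteasome genes (coloured) and 17492 protein-coding genes (grey). In HEPA1-6 the proteasome line rises at the start, is lower in the early body and is higher again in the later body and past the end; all protein-coding genes lie below it throughout the body.

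The profile along the gene body was higher toward the end in HEPA1-6. With the body cut into 4 equal stretches, on average 29.8% of the 43 genes were covered by a HEPA1-6 peak in the first stretch and 40.2% in the last, with 36.5% over the 2 kb downstream. All protein-coding genes had 12.1%, 14.2% and 13.9%. For liver-labelled peaks the proteasome genes had 11.2% in the first stretch and 13.5% in the last, where all protein-coding genes had 6.12% and 5.70%.

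The strand the authors gave to a peak was mostly that of the gene. Of 110 pairs of a HEPA1-6 peak and a member with a known strand, 97 (88.2%) had the same strand and 13 the opposite one, against 87.2% the same over all protein-coding genes. In the liver-labelled list 26 of 29 (89.7%) were the same, against 83.5%. How the strand was assigned is not given in the sources used here. Of the 13 opposite HEPA1-6 peaks, 9 also overlapped another gene, for example Htr2b inside Psmd1 and Ftsj3 beside Psmc5. At Psma2 the peak over the start lay on the strand opposite to the gene in both lists (scores 13 and 21), with no other gene body under it. In 5 of the 37 overlapping pairs (13.5%, against 14.0% of all pairs) the lists gave opposite strands to one another. These pairs lay at Psma7, Psmb3, Psmc5, Psmd3 and Psmd13.

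Promoter sequences were set beside the peaks at the starts. The RefSeq table (GRCm38.p6) gives the 250 bases before and 50 after each annotated start, and holds 47 such windows for 43 members. Of these, 20 were overlapped by a HEPA1-6 peak (42.6%), and 8 by a liver-labelled peak (17.0%), each of which also had a HEPA1-6 peak. Over all 21263 protein-coding windows the shares were 20.1% and 13.2%. The windows shown first belong to Psme4, Psme3 and Psmd12, with a peak in both lists over them. Psmc6 had one in HEPA1-6 only. Psme1 and Psmd10 had none, and are shown for contrast. They read 5′ to 3′ along the gene. Capitals mark matches, on either strand, to CCAAT (the NF-Y box), GGGCGG (the GC box), CCGGAAG (an ETS core), TGACNNNGC (an antioxidant response element core, the kind of site bound by the proteasome gene regulator Nfe2l1) and TATAAA, and neighbouring matches can run together or overlap.
Psme4 (chr11:30771525-30771824, plus strand): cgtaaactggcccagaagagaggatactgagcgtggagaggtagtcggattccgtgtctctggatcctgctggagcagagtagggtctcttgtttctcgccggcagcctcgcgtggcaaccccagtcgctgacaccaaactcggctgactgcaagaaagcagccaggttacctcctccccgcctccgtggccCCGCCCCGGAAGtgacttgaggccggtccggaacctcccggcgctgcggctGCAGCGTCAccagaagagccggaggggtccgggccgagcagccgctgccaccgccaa
Psme3 (chr11:101315963-101316262, plus strand): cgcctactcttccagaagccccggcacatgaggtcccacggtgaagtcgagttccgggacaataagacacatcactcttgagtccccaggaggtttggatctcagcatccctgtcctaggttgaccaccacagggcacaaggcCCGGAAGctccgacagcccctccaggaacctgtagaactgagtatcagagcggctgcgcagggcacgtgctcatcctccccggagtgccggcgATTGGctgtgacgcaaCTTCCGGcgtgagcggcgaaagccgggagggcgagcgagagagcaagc
Psmd12 (chr11:107479278-107479577, plus strand): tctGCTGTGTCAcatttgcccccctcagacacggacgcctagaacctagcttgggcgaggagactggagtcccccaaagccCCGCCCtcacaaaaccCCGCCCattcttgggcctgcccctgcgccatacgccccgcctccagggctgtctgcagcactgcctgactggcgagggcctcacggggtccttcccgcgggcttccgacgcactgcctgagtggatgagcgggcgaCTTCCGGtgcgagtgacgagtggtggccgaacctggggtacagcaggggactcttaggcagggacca
Psmc6 (chr14:45329574-45329873, plus strand): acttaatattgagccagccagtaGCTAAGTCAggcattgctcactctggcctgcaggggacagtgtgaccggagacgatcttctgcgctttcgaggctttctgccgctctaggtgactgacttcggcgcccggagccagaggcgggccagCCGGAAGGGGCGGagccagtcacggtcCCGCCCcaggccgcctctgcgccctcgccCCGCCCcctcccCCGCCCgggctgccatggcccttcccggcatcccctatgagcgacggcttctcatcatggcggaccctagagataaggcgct
Psme1 (chr14:55578244-55578543, plus strand): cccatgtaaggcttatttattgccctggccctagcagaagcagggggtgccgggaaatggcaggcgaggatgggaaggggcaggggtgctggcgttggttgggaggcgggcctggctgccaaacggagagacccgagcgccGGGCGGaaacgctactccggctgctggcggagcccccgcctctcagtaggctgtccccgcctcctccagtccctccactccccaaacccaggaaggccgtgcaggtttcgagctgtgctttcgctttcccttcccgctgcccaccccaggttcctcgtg
Psmd10 (chrX:140956662-140956961, minus strand): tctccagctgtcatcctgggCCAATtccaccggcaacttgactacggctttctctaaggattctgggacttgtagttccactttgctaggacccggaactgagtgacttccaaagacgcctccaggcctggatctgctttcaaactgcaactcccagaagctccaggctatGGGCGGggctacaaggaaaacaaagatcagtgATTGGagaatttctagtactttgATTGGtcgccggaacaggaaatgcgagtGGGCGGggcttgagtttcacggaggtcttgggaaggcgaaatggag

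None of these 6 windows holds TATAAA, and their GC content ran from 52.3% at Psmd10 to 66.3% at Psmd12, Psmc6 and Psme1. CCGGAAG is in the windows of Psme4, Psme3, Psmd12 and Psmc6, and in neither of the windows shown without a peak. The 6 windows are examples, and other members do not divide in this way. A window of Psma6 and that of Psmd2 hold CCGGAAG without a peak. Those of Psma7 and Psmd8 lack it with a peak in both lists. Psme1, without a peak, has a GC content as high as Psmd12, which has a peak in both lists. Over the 47 member windows the median GC content was 57.3% and the median number of CpG dinucleotides 19, against 56.3% and 13 over all protein-coding windows. Member windows with a HEPA1-6 peak had a median GC content of 60.7% and those without 57.3%. Over all windows these medians were 63.2% and 54.3%. GC skew, the excess of G over C on the gene's strand as a share of both, had a median of -0.03 in member windows with a HEPA1-6 peak and of 0.00 in those without. In the 8 with a peak in both lists it ranged from -0.09 to 0.03. The windows hold only 50 bases past the start, where skew is usually sought.

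Motif matches differed in how common they were. CCGGAAG was in 17 of 47 member windows (36.2%), against 11.6% of all protein-coding windows. It was in 11 of the 20 with a HEPA1-6 peak (55.0%) and in 6 of the 27 without (22.2%), while over all windows the shares were 20.9% and 9.22%. GGGCGG was in 25 member windows (53.2%, against 46.2%), CCAAT in 16 (34.0%, against 38.2%) and TATAAA in 4 (8.51%, against 12.6%). TGACNNNGC was in 6 (12.8%, against 13.0%): those of Psmb5, Psmb6, Psmc6, Psmd9, Psmd12 and Psme4. A match is a description of the letters, and no test was made.

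Other genes of the ubiquitin-proteasome pathway, from a list of 34 of which 33 were in the gene table, were counted in the same way. The list was put together by hand from general knowledge, with earlier results of these data known. It holds genes whose symbols fall outside the naming rule, whether or not they encode subunits. Its shares are a description and no independent check. A HEPA1-6 peak was found at 30 (90.9%, 76.4 to 96.9%), against 42.0% of all protein-coding genes. The liver-labelled list had a peak at 22 (66.7%, 49.6 to 80.2%), against 29.7%. All 22 were among the 30. Of all protein-coding genes with a liver-labelled peak, 93.6% held a HEPA1-6 peak too, so this overlap was near the general share. Ubb, which encodes ubiquitin, had 1 peak in each list, with a HEPA1-6 score of 452 and a liver-labelled score of 232. Zfand5, which encodes a protein that stimulates the proteasome, had highest scores of 177 and 159. Rps27a, which encodes ubiquitin fused to a ribosomal protein, had 131 and 36, and the segregase gene Vcp had 114 and 32. The chaperone gene Pomp had 66 and 51, and Nfe2l1, encoding the transcription factor that raises proteasome gene expression, had 43 and 53. Ube3c, Ubqln2 and Sel1l held no peak in either list.

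Proteasome genes were last set beside 2 other families that every cell transcribes. Of 85 cytosolic ribosomal protein genes, 79 (92.9%) were in the HEPA1-6 list and 77 (90.6%, 82.5 to 95.2%) in the liver-labelled one. Of 78 mitochondrial ribosomal protein genes, 62 (79.5%) and 33 (42.3%, 32.0 to 53.4%) were. Proteasome genes, at 82.4% and 52.9%, lay nearer to the mitochondrial family. The highest HEPA1-6 score per gene had medians of 40 for proteasome, 117 for cytosolic ribosomal and 30.5 for mitochondrial ribosomal genes. In the liver-labelled list these medians were 22, 58 and 30. The binomial intervals of the proteasome medians, 30 to 47 in HEPA1-6 and 21 to 33 in the liver-labelled list, include the mitochondrial medians. These scores therefore do not order proteasome and mitochondrial ribosomal genes. The ribosomal families were chosen by symbol, and the differences were not tested.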

How the data were processed

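The authors deposited 1 peak list per source, with chromosome, start, end, name, score and strand, and the peak names give a merged immunoprecipitate against an input. The submitters' processing notes name mm10, CASAVA 1.8.2, cutadapt, Bowtie2, bedtools, SAMtools and MACS2, without parameters. The deposited score, in whole numbers from 10 upwards, has no scale that the authors state and served only to describe peaks within a list. No replicate list was used, so there is no test. Genes came from RefSeq GRCm38.p6. The table holds no exons, so positions were not divided into exon, intron and UTR. Coordinates are 1-based. A peak was counted for a gene if it shared at least 1 bp with the gene model extended by 1 kb in each direction; for starts and ends the window reached 1 kb to each side. Shares carry 95% Wilson intervals (SciPy 1.17.1). Interval functions were tested on simulated data. The members, gene lists and motifs were chosen with earlier results of these data known. Every member is accounted for. Every peak score is given for the 5 highest members of each list and for members with a peak in 1 list only or with peaks opposite to the gene's strand. Alternatives varied flank, window, peak midpoint, score and number of peaks, or left out peaks that overlap another gene. The values of 1 gene of the pathway list are not reported here.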

Additional observations from a re-analysis of the deposited data

How the results depend on the processing

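Across 48 alternatives for 11 results, 43 values stayed within 1.5 times the reported count or, for the median scores, within the binomial interval of the median, and 5 moved. Keeping peaks that score at or above their list's median gave 15 genes with a liver-labelled peak (29.4%, against 20.8% of all protein-coding genes). It gave 15 with a peak in both lists (29.4%, against 19.3%), and 5 with a liver-labelled peak at the end. This setting leaves out peaks by construction. Counting midpoints alone, a narrower criterion, left 15 genes with an end peak in HEPA1-6 and 5 with a liver-labelled one. For the end counts of both settings the share of all protein-coding genes was not computed. Shortening HEPA1-6 to as many peaks as the liver-labelled list left 39 of 51 genes with a HEPA1-6 peak (76.5%, against 34.0% of all protein-coding genes). Keeping only peaks that overlap no other gene left 36 genes with a HEPA1-6 peak, 24 with a liver-labelled one and 20 with both. The remaining genes of the main counts rest only on peaks that also lie on another gene. For this setting the share of all protein-coding genes was not computed. No paired analysis was possible because the data are 1 merged list per source, and for the same reason no replicate was left out. The unknown depth limits each statement that a gene lacks a peak, above all in the shorter list.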
